A study of Mus musculus with 10 samples.

Results

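Genes with a far higher level in cells without Pax5 than in Pax5(+/+) pro-B cells, and with a level near that of Pax5(+/+) in cells with the mutant protein Pax5-R31Q, were followed across 8 RNA-seq libraries. Of the 25579 rows in the deposited expression files, 121 genes were selected. They were chosen from the measured values themselves. The unit was TPM (a measure of transcript abundance, in which the reads of a gene are divided by its length and scaled to the same sum in each library). Genotype means were taken of log2(TPM + 1), and d was a genotype's mean minus the Pax5(+/+) mean. A member had at least 5 TPM in both Pax5-deficient libraries, a d of at least 2 in these cells, and a d of Pax5(R31Q/-) between -0.6 and 0.6. Immunoglobulin segments were left out. The part of the rule about Pax5-deficient cells was met by 246 genes, of which the 121 members made up 49.2%. A further 64 of the 246 genes had a d of Pax5(R31Q/-) between 0.6 and 1, 48 had 1 or more, and 13 had -0.6 or less.

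All cells came from bone marrow of C57BL/6 mice, with 2 RNA-seq libraries per genotype, and the ages were not given in the sources used here. Pro-B cells sorted directly from the marrow were Pax5(+/+), Pax5(+/-) with 1 intact allele, or Pax5(R31Q/-), in which the allele for Pax5-R31Q is opposite a null allele. The fourth genotype, Pax5(fl/fl) Vav-Cre, is written Pax5-/- below. In these mice Vav-Cre, which is active throughout blood cells, removes the loxP-flanked Pax5 alleles, and the labels name the sorted cells progenitor cells, not pro-B cells. In addition, 1 Pax5 ChIP-seq peak list came from cultured Rag2(-/-) pro-B cells with wild-type Pax5 and 1 from cultured Pax5(R31Q/-) pro-B cells, as the genotype labels state. The antibody was raised against the paired domain, the part of Pax5 that holds the mutation.

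Pax5 is the transcription factor that commits lymphoid progenitors to the B cell lineage. It binds DNA through its paired domain, switches on B cell genes, and keeps down genes that other blood lineages use. Pro-B cells without Pax5 stop at an early stage and retain the capacity to form other blood cells, with many genes of progenitors, myeloid cells and T cells being transcribed.

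Read numbers, worked back from the spacing of the TPM values, summed to between 21625407 and 34488454 per library, with 21625407 and 33248716 in the Pax5-/- libraries. Nothing in the sources used here says that replicates came from separate mice, so p-values measure the spread between these samples, which may be technical. Of the members, 52 overlap another RefSeq gene, and as the strand setting of the counting was not given, reads of overlapping genes cannot be told apart. Pax5 itself does not check the labels, as its reads were not split by exon. It had 418 and 444 TPM in Pax5(+/+), 272 and 287 TPM in Pax5(+/-), 306 and 293 TPM in Pax5(R31Q/-) and 1242 and 1409 TPM in Pax5-/- cells. Summed over 17 pro-B cell markers the level was 10758 and 10062 TPM in Pax5-/- libraries, against 19807 to 27016 TPM elsewhere. Summed over 12 genes of dividing cells it was 542 and 549 TPM, against 1498 to 2678 TPM. A gene's level in sorted cells cannot tell a change per cell from a change in the mix of cells. Of 15 T cell markers, 6 were under 1 TPM in both Pax5-/- libraries, among them Cd3d, Cd3e, Cd3g and Bcl11b, and of 11 NK cell markers 6 were, with Gzmb at 0. No marker of plasmacytoid dendritic cells or of granulocytes and monocytes was under 1 TPM there. Their sums differed between the Pax5-/- libraries, at 1510 and 2404 TPM for the dendritic cell list (664 to 1211 TPM elsewhere) and 2537 and 881 TPM for the granulocyte and monocyte list (467 to 1630 TPM elsewhere). Mast cell and basophil markers, with Fcer1a at 0 in both Pax5-/- libraries, summed to 25.9 and 19.3 TPM (6.96 to 15.0 TPM elsewhere), erythroid and megakaryocyte markers to 28.1 and 7.72 TPM (24.4 to 37.4 TPM), T cell markers to 95.0 and 128 TPM (58.3 to 141 TPM) and NK cell markers to 74.3 and 53.3 TPM (15.9 to 30.7 TPM). Of 9 T cell markers tested with limma, 4 were higher and 0 lower in Pax5-/- than in Pax5(+/+) cells at an adjusted p under 0.05. Of 5 NK cell markers tested, 3 were higher and 2 lower, in a list that holds the member Nkg7. Over all genes, 16.2% were called higher and 19.7% lower.

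Pax5 peaks near some members are shown first as sequence, because they allow the binding of both proteins to be compared at the DNA. The letters GCGTGAC form the core of the consensus that the Pax5 paired domain recognizes. On either strand this core lay inside 10 of the 195 wild-type peaks at members, counting peaks in a gene or within 10 kb of it. Of these 10 peaks, 6 were overlapped by a Pax5(R31Q/-) peak and 4 were not. The stretches below were read from GRCm38.p6 (RefSeq), contain no annotated exon, are given on the strand of the gene, and have the core in capitals (written GTCACGC where it lies on the other strand). The first 3 come from peaks found with both proteins. The Tyrobp stretch (chr7:30412693-30412932, plus strand) is 937 bases before the start site by the peak's midpoint, the Smim5 stretch (chr11:115905439-115905678, plus strand) lies in an intron, and the Mn1 stretch (chr5:111460808-111461047, plus strand) lies downstream of the gene.
Tyrobp: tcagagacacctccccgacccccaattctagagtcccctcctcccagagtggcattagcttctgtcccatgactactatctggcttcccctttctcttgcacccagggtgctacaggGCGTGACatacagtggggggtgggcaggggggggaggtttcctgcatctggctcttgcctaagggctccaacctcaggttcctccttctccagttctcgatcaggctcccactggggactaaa
Smim5: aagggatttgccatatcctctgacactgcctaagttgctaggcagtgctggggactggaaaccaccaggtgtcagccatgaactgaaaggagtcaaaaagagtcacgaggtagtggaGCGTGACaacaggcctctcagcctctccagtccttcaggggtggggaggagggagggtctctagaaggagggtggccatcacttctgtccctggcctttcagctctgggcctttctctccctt
Mn1: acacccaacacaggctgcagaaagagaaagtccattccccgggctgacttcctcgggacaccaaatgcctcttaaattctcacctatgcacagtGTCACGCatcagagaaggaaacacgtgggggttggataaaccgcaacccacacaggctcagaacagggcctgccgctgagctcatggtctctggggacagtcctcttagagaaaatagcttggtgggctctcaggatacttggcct
The next 3 come from wild-type peaks that no Pax5(R31Q/-) peak overlapped. The Celsr1 stretch (chr15:86035045-86035284, minus strand) is 1391 bases from the start site by the peak's midpoint, and the Runx2 stretch (chr17:44722136-44722375, minus strand) and the Tbc1d16 stretch (chr11:119166116-119166355, minus strand) are intronic.
Celsr1: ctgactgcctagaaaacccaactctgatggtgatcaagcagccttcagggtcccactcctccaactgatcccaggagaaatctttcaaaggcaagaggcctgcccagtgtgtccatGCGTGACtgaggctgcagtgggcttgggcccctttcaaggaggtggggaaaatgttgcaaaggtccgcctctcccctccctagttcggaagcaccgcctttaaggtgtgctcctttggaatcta
Runx2: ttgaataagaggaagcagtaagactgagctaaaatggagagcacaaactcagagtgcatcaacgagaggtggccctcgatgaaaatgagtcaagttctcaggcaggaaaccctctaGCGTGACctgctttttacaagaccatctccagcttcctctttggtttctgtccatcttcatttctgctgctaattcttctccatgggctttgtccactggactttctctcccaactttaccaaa
Tbc1d16: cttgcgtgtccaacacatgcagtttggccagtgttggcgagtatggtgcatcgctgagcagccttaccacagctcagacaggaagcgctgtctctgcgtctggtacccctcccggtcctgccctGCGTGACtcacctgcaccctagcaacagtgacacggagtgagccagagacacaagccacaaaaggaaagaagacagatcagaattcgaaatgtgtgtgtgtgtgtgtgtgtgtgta
The last pair shows promoter peaks of both proteins without the core, from Coro2a (chr4:46602098-46602337, minus strand) and Slc25a1 (chr16:17928410-17928649, minus strand).
Coro2a: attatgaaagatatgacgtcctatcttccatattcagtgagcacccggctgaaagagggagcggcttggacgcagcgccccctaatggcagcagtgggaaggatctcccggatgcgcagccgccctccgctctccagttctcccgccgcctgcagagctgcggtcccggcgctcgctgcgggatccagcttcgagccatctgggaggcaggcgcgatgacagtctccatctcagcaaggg
Slc25a1: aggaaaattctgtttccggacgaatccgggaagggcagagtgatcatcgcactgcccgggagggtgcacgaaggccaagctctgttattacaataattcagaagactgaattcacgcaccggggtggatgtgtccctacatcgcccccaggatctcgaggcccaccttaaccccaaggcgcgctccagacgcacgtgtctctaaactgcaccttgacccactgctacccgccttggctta

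These sequences show the core at members in peaks of either kind. In the central 200 bases, GCGTGAC was held by 4 of 130 overlapped and 3 of 65 not overlapped wild-type peaks of members, which is 3.08% and 4.62%. Over all wild-type peaks it was held by 6.16% of the 15727 overlapped and 1.53% of the 26256 not overlapped. With the looser letters GCGTNAC, which take in the core, the shares at members were 5.38% (7 of 130) and 4.62% (3 of 65), so that their order turned, and over all wild-type peaks 10.3% and 1.98%. Few member peaks stand behind either share, and no order is read from them. A core match is a description of the letters, and peaks without it may hold other forms of the site.

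The level of the members in Pax5(+/+) cells ranged from 0 to a mean of 237 TPM, the latter for the myosin light chain gene Myl4. The mean Pax5(+/+) level was under 1 TPM for 35 members, from 1 to under 5 TPM for 38, from 5 to under 20 TPM for 33, and 20 TPM or more for 15, with a median of 3.09 TPM. In Pax5-/- cells the median was 28.7 TPM. The rule fixed this difference, which had a median d of 2.61 and ran from 2.03 to 6.44, while the median over all 13436 genes tested was -0.11. For 106 of the 121 members, both Pax5-/- libraries were more than 3 times the highest of the 6 other libraries.

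**Figure D1:**
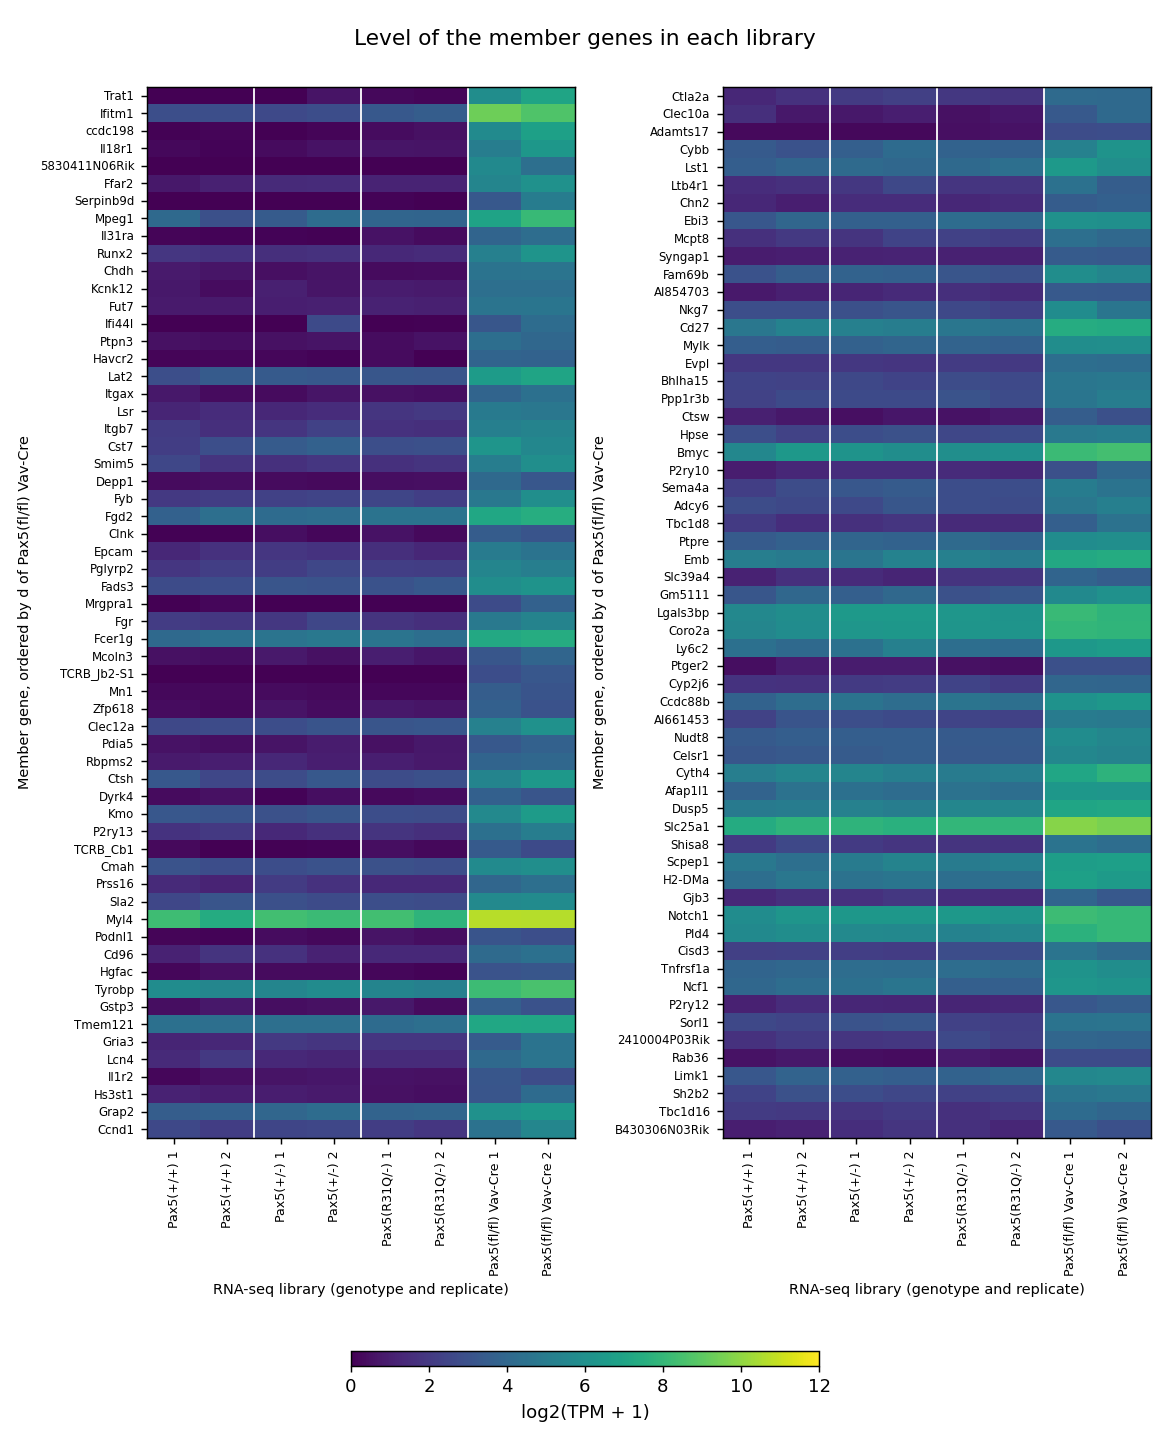
Level of 119 of the 121 members (rows, ordered by d of Pax5-/- from the top left down and on to the right) in each of the 8 libraries (columns), as log2(TPM + 1). Both Pax5-/- libraries are above the other 6 for every member drawn, which the selection favoured.

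**Figure D2:**
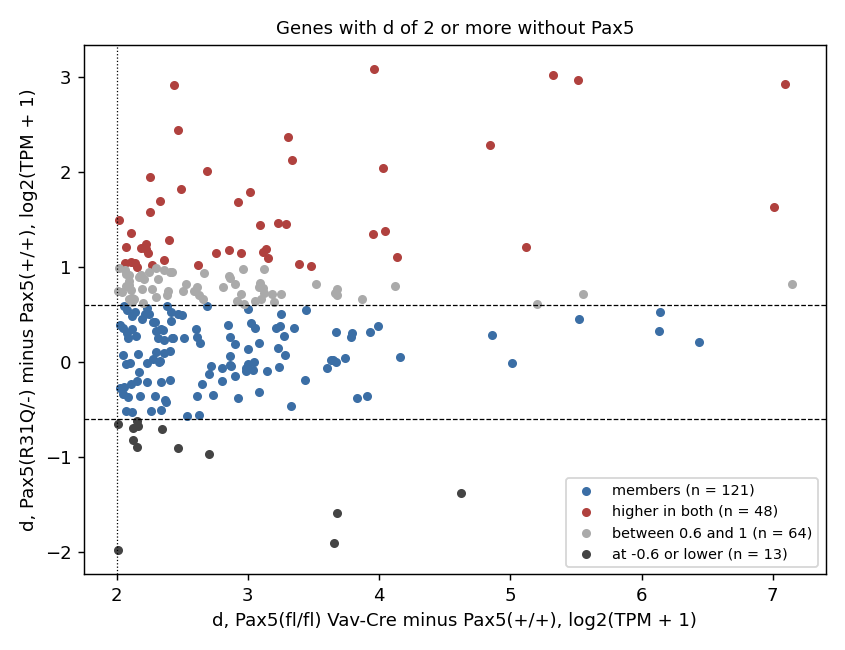
The 246 genes with at least 5 TPM in both Pax5-/- libraries and a d of at least 2 there, plotted by d of Pax5-/- (x axis) and d of Pax5(R31Q/-) (y axis), both in log2(TPM + 1). The 121 members lie between the dashed lines at -0.6 and 0.6, where they were picked.

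The d of Pax5(R31Q/-), also fixed by the rule, had a median of 0.10 and was above 0 for 72 members and below 0 for 48. As the scale adds 1 to each value, it understates changes of weakly transcribed genes. On plain TPM, 20 members were more than 1.5 times higher in Pax5(R31Q/-) than in Pax5(+/+) cells and 11 were lower by the same factor. Just inside the upper limit were Gria3 (d of 0.59), AI854703 (0.59) and 2410004P03Rik (0.58), and just outside were Il18rap (0.61), Apobr (0.61) and Tgtp1 (0.62). Just inside the lower limit were Clec10a (-0.57), Hs3st1 (-0.56) and Shisa8 (-0.53), and just outside were Cdh5 (-0.62), Rrad (-0.66) and Jaml (-0.67). At the limit for Pax5-/-, B430306N03Rik (2.03), Tbc1d16 (2.03) and Sh2b2 (2.05) were inside, and Relt (1.99), Agpat2 (1.99) and Tenm4 (1.99) outside. At the TPM minimum, TCRB_Cb1 (5.49 TPM in its lower library), Rab36 (5.60 TPM) and Mrgpra1 (5.68 TPM) were inside, and Myom3 (4.91 TPM), Upb1 (4.75 TPM) and Cd6 (4.67 TPM) outside. TCRB_Jb2-S1, a short T cell receptor segment, passed the minimum with 6.1 and 8.67 TPM that rested on 1 and 2 reads, so that its values carry little weight.

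Since these values chose the genes, the rule was also run on 7 libraries, and the eighth was read as a library it had not used. Without Pax5(R31Q/-) replicate 1, the rule took 127 genes, and in that left-out library 109 of them (85.8%) lay within 0.6 of the Pax5(+/+) mean. Without replicate 2 the values were 126 genes and 109 (86.5%). Of all genes tested, 87.0% and 86.6% did so, so the share of chosen genes near the Pax5(+/+) level in a fresh Pax5(R31Q/-) library was close to that of any gene. Without Pax5-/- replicate 1, the rule took 159 genes, and 107 (67.3%) had a difference of at least 2 in the left-out library, with a median of 2.26. Without replicate 2, 107 of 154 (69.5%) did, with a median of 2.37, against 2.37% and 2.58% of all genes tested. These differences share the Pax5(+/+) libraries with the rule.

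The largest values of d in Pax5-/- cells belonged to Trat1 (6.44), Ifitm1 (6.14) and ccdc198 (6.13). Trat1, which encodes a transmembrane adaptor of the T cell receptor complex, had 0 TPM in each Pax5(+/+) library, 0 and 0.539 TPM in Pax5(+/-), 0.21 and 0.107 TPM in Pax5(R31Q/-) and 57.9 and 127 TPM in Pax5-/- libraries. Ifitm1, an interferon-inducible membrane protein that restricts virus entry, had 6.32 and 6.34 TPM in Pax5(+/+), 5.29 and 6.23 TPM in Pax5(+/-), 8.72 and 10.5 TPM in Pax5(R31Q/-) and 651 and 408 TPM in Pax5-/- cells. For ccdc198, the values were 0.0616 and 0.138 TPM, 0 and 0.126 TPM, 0.308 and 0.441 TPM and 51.9 and 112 TPM in the same order. In each of these 3 genes the Pax5-/- libraries stood far above the rest, and both Pax5(R31Q/-) values were above both Pax5(+/+) values. How many of all genes show such a separation of Pax5(R31Q/-) from Pax5(+/+) libraries was not counted. For Pax5(+/-) against Pax5(+/+) libraries, 21.1% of all genes tested lay above without overlap and 14.9% below. Such a separation, here and for the genes that follow, is therefore only a description of the values. Of 16 interferon-response genes, limma called 11 higher and 0 lower in Pax5-/- than in Pax5(+/+) cells at an adjusted p under 0.05, calls made for 16.2% and 19.7% of all genes. The list holds the members Ifitm1 and Ifi44l, which the rule chose on this contrast. Its sum was 2244 and 1748 TPM against 689 to 859 TPM elsewhere, and without these members 1585 and 1321 TPM against 683 to 849.6 TPM. The part of this in the level of Ifitm1 was not tested. The uncharacterized gene 5830411N06Rik had 0.0181 and 0.0203 TPM in Pax5(+/+) and 50.8 and 19.96 TPM in Pax5-/- cells, and Serpinb9d, a serine protease inhibitor, had 0 TPM in each Pax5(+/+) library and 8.87 and 31.4 TPM in Pax5-/- cells.

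Of the 4 members among cytokine receptors, Il18r1 and Il31ra were among the 10 with the largest d of Pax5-/-, while Il1r2 (2.63) and Tnfrsf1a (2.08) had values of d near the median and near the limit of the rule. Of 25 lymphoid cytokine receptor genes tested, limma called 21 higher and 1 lower in Pax5-/- than in Pax5(+/+) cells at the same threshold, and 1 in either direction in Pax5(R31Q/-) cells, a call made for 4.17% of all genes. As the members were chosen on these contrasts and add to the counts, this count and those of the role lists that follow describe the lists, are to be held against the 16.2% higher and 19.7% lower in Pax5-/- and the 4.17% changed in Pax5(R31Q/-) cells among all genes, and say nothing of the members. Il18r1, a chain of the interleukin-18 receptor, had 0.21 and 0.0842 TPM in Pax5(+/+), 0.293 and 0.494 TPM in Pax5(+/-), 0.601 and 0.538 TPM in Pax5(R31Q/-) and 33.0 and 80.3 TPM in Pax5-/- cells. The Pax5(R31Q/-) values were above the Pax5(+/+) values and came from 40 and 35 reads against 14 and 5. Its partner chain gene Il18rap, just outside the rule, had 0.985 and 0.989 TPM in Pax5(+/+) and 67.2 and 77.4 TPM in Pax5-/- cells. Il31ra, a receptor chain for interleukin-31, had 0.118 and 0.0878 TPM in Pax5(+/+), 0.489 and 0.26 TPM in Pax5(R31Q/-) and 13.4 and 18.6 TPM in Pax5-/- cells. The decoy receptor for interleukin-1, Il1r2, had 0.164 and 0.414 TPM in Pax5(+/+), 0.492 and 0.461 TPM in Pax5(R31Q/-) and 8.25 and 5.86 TPM in Pax5-/- cells. Tnfrsf1a, the main receptor for tumor necrosis factor, was well transcribed in every genotype and had 13.6 and 14.9 TPM in Pax5(+/+), 18.3 and 18.2 TPM in Pax5(+/-), 18.7 and 17.0 TPM in Pax5(R31Q/-) and 69.7 and 57.3 TPM in Pax5-/- cells.

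Receptors that sense chemoattractants and nucleotides gave 6 members. In this list of 27 tested genes, 18 were called higher and 3 lower in Pax5-/-, and 6 changed in either direction in Pax5(R31Q/-) cells. The short-chain fatty acid receptor gene Ffar2 had 0.687 and 1.11 TPM in Pax5(+/+), 1.69 and 1.75 TPM in Pax5(+/-), 1.32 and 1.27 TPM in Pax5(R31Q/-) and 43.0 and 66.9 TPM in Pax5-/- cells. Ltb4r1, the receptor for leukotriene B4, differed between the Pax5-/- libraries, with 21.5 and 10.8 TPM, and had 1.86 and 2.2 TPM in Pax5(+/+) cells. The nucleotide receptor gene P2ry13 had 2.33 and 3 TPM and 20.7 and 33.4 TPM, and its neighbor P2ry12 had 1.15 and 1.86 TPM and 8.5 and 10.5 TPM, respectively. Both genes lie on the opposite strand of Med12l. P2ry10, a receptor for lysophospholipids, and Ptger2, a prostaglandin E2 receptor, stayed between 0.351 and 1.97 TPM in the 6 libraries with Pax5 and reached 6.64 and 15.0 TPM and 6.72 and 6.5 TPM in Pax5-/- cells.

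The signaling chains Fcer1g and Tyrobp, both adaptors with activation motifs that carry signals from myeloid and NK cell receptors, were members with high levels. Fcer1g had 16.4 and 20.6 TPM in Pax5(+/+), 23.7 and 26.9 TPM in Pax5(+/-), 23.3 and 19.2 TPM in Pax5(R31Q/-) and 153 and 174 TPM in Pax5-/- cells. Tyrobp had 56.2 and 44.1 TPM, 43.1 and 54.0 TPM, 42.0 and 36.1 TPM and 298 and 380.1 TPM in the same order. Both Pax5(R31Q/-) values of Tyrobp were below both Pax5(+/+) values, whereas those of Fcer1g overlapped them. Of the 23 myeloid receptors tested, 19 were called higher and 1 lower in Pax5-/-, and 3 changed in Pax5(R31Q/-) cells. The inhibitory lectin receptor gene Clec12a had 5.01 and 5.66 TPM in Pax5(+/+), 8.11 and 8.43 TPM in Pax5(R31Q/-) and 37.1 and 66.6 TPM in Pax5-/- cells. Havcr2, which encodes the inhibitory receptor Tim-3, stayed at or under 0.264 TPM with Pax5 and had 13.4 and 12.8 TPM without it. Clec10a, a lectin of macrophages and dendritic cells, had 2.06 and 0.698 TPM in Pax5(+/+), so that its replicates differed widely, 0.43 and 0.636 TPM in Pax5(R31Q/-) and 9.23 and 16.0 TPM in Pax5-/- cells.

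Downstream of such receptors, 10 of the 35 tested genes of proximal tyrosine kinase signaling were members. In this list 21 genes were called higher and 9 lower in Pax5-/-, and 5 changed in Pax5(R31Q/-) cells. Lat2, the linker that recruits signaling proteins in B cells and mast cells, had 6.36 and 9.97 TPM in Pax5(+/+), 9.56 and 8.91 TPM in Pax5(+/-), 8.16 and 8.04 TPM in Pax5(R31Q/-) and 94.8 and 129 TPM in Pax5-/- cells. The adaptor gene Fyb had 2.98 and 3.51 TPM, 3.92 and 4.52 TPM, 4.67 and 3.63 TPM and 26.8 and 59.4 TPM, and the adaptor gene Grap2 had 10.7 and 11.7 TPM, 14.7 and 17.6 TPM, 13.1 and 14.02 TPM and 66.4 and 81.7 TPM in the same order. All Pax5(+/-) and Pax5(R31Q/-) values of these adaptors, except those of Lat2, were above both Pax5(+/+) values. Fgr, a Src-family kinase of myeloid cells, went the other way in Pax5(R31Q/-) cells, with 2.45 and 2.11 TPM against 3.33 and 2.84 TPM in Pax5(+/+) and 28.0 and 40.4 TPM in Pax5-/- cells. The adaptor genes Sla2 and Sh2b2 had 4.96 and 7.92 TPM and 4.32 and 6.88 TPM in Pax5(+/+), and 49.2 and 55.1 TPM and 24.5 and 27.0 TPM in Pax5-/- cells. Clnk, an adaptor of the SLP-76 family, had 0.0453 and 0.0508 TPM in Pax5(+/+), 0.498 and 0.232 TPM in Pax5(R31Q/-) and 10.3 and 7.76 TPM in Pax5-/- cells, from 1 and 1, 11 and 5 and 164 and 174 reads. Here the Pax5(R31Q/-) values were above the Pax5(+/+) values, although the rule took the gene as near the Pax5(+/+) level.

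**Figure D3:**
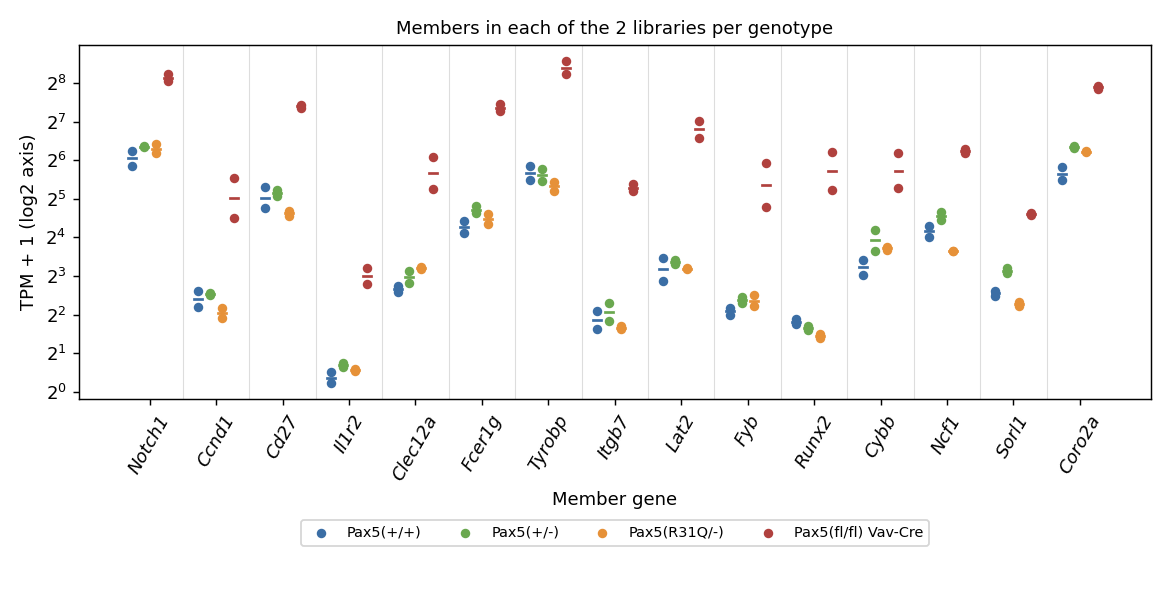
TPM + 1 on a log2 axis for 15 members, with Pax5-/- shown under its full name Pax5(fl/fl) Vav-Cre. Each point is 1 library, with 2 per genotype, and the bar is their mean on the log scale. For each gene both Pax5-/- points lie above the points of the 3 other genotypes, and for Ncf1 and Sorl1 the Pax5(R31Q/-) points lie below those of Pax5(+/-) and Pax5(+/+).

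Notch1, the receptor that starts T cell commitment, was the only member of the Notch pathway list. It had 56.8 and 74.7 TPM in Pax5(+/+), 81.7 and 79.5 TPM in Pax5(+/-), 83.8 and 71.9 TPM in Pax5(R31Q/-) and 298 and 263 TPM in Pax5-/- cells. Its level in Pax5(+/+) cells was thus among the 15 members at 20 TPM or more, and the Pax5(R31Q/-) values overlapped those of Pax5(+/+). Of the 26 pathway genes tested, 6 were called higher and 7 lower in Pax5-/-, and 4 changed in either direction in Pax5(R31Q/-) cells. Notch1 overlaps 0610009E02Rik on the opposite strand. For Cd27, a receptor of the tumor necrosis factor receptor family found on progenitors and lymphocytes, the values were 25.9 and 38.5 TPM in Pax5(+/+), 36.7 and 32.6 TPM in Pax5(+/-), 24.8 and 22.5 TPM in Pax5(R31Q/-) and 172 and 163 TPM in Pax5-/- cells. Both Pax5(R31Q/-) values of Cd27 lay below all values of Pax5(+/+) and Pax5(+/-). It was the only member among the 20 progenitor and growth factor receptors tested, of which 13 were called higher and 1 lower in Pax5-/-, and 2 changed in Pax5(R31Q/-) cells.

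Adhesion molecules gave 4 members of 26 tested genes, with 14 genes called higher and 3 lower in Pax5-/-, and 2 changed in Pax5(R31Q/-) cells. The integrin chain gene Itgb7, used in homing to the gut, had 3.25 and 2.08 TPM in Pax5(+/+), 2.26 and 2.06 TPM in Pax5(R31Q/-) and 35.5 and 40.9 TPM in Pax5-/- cells. Itgax, which encodes the dendritic cell integrin CD11c, had 0.697 and 0.261 TPM, 0.431 and 0.373 TPM and 13.7 and 20.5 TPM, and Epcam had 1.53 and 2.31 TPM, 2.06 and 1.53 TPM and 30.7 and 22.4 TPM in the same order. In all 3 genes the Pax5(R31Q/-) values overlapped the Pax5(+/+) values, and the Pax5-/- values were set apart. Emb, embigin, was higher throughout, with 34.0 and 29.5 TPM in Pax5(+/+), 35.9 and 28.9 TPM in Pax5(R31Q/-) and 151 and 165 TPM in Pax5-/- cells.

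Regulators of small GTPases and the cytoskeleton numbered 6 members of 28 tested genes, of which 21 were called higher and 3 lower in Pax5-/-, and 3 changed in Pax5(R31Q/-) cells. Coro2a, a coronin that also sits in a corepressor complex, had 43.9 and 55.3 TPM in Pax5(+/+), 78.5 and 81.1 TPM in Pax5(+/-), 74.5 and 72.7 TPM in Pax5(R31Q/-) and 242 and 229.7 TPM in Pax5-/- cells. Dusp5, a phosphatase that turns off ERK, had 30.1 and 31.4 TPM, 37.2 and 33.1 TPM, 44.7 and 44.4 TPM and 134 and 145 TPM in the same order. For both genes, the Pax5(R31Q/-) values stood above the Pax5(+/+) values without overlap, although d was under the limit. Fgd2 and Cyth4, exchange factors for Cdc42 and for Arf proteins, had 140.4 and 178 TPM and 137 and 215 TPM in Pax5-/- cells, against 12.2 and 20.1 TPM and 33.5 and 42.4 TPM in Pax5(+/+) cells. The kinase genes Limk1 and Mylk had 45.3 and 48.7 TPM and 57.4 and 59.2 TPM, against 8.52 and 13.2 TPM and 10.97 and 10.1 TPM.

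Of the lineage transcription factors, 4 of 37 tested genes were members, while 19 were called higher and 7 lower in Pax5-/-, and 4 changed in Pax5(R31Q/-) cells. Runx2, a runt-domain factor of bone and of plasmacytoid dendritic cells, had 2.67 and 2.37 TPM in Pax5(+/+), 2.02 and 2.27 TPM in Pax5(+/-), 1.64 and 1.82 TPM in Pax5(R31Q/-) and 36.5 and 73.2 TPM in Pax5-/- cells. It was lower in both Pax5(R31Q/-) libraries than in any Pax5(+/+) or Pax5(+/-) library. Bhlha15, known from plasma cells, had 4.36 and 4.2 TPM in Pax5(+/+), 6.02 and 5.3 TPM in Pax5(R31Q/-) and 25.5 and 26.5 TPM in Pax5-/- cells. Mn1, a transcriptional coregulator, had 0.189 and 0.235 TPM, 0.147 and 0.14 TPM and 10.4 and 7.69 TPM in the same order. Of the D cyclins and cell cycle inhibitors, Ccnd1, which encodes cyclin D1, was the only member, with 5.13 and 3.59 TPM in Pax5(+/+), 3.52 and 2.77 TPM in Pax5(R31Q/-) and 21.7 and 45.2 TPM in Pax5-/- cells. In this list of 10 genes, 3 were called higher and 6 lower in Pax5-/-, and 3 changed in Pax5(R31Q/-) cells.

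Runx2, Ly6c2 and Pld4 are also markers of plasmacytoid dendritic cells. All 3 were higher in Pax5-/- replicate 2. The sum over the other 13 markers of that list was 1184 and 1969 TPM in Pax5-/-, 1137 and 1115 TPM in Pax5(+/+), 1060.0 and 931 TPM in Pax5(+/-), and 660.4 and 599.9 TPM in Pax5(R31Q/-) cells. Of the 16 genes of the whole list, limma called 0 higher and 3 lower in Pax5(R31Q/-) than in Pax5(+/+) cells. The median difference of the list was -0.56, and 4.17% of all genes were called in either direction. A link between the list and its 3 members was not tested. Pld4 had 50.5 and 58.0 TPM in Pax5(+/+), 38.8 and 44.8 TPM in Pax5(R31Q/-) and 207 and 262 TPM in Pax5-/- cells, and Ly6c2 had 82.8 and 99.2 TPM in the latter. Mpeg1, the perforin-like protein of macrophages, had 16.2 and 6.61 TPM in Pax5(+/+), 9.8 and 18.1 TPM in Pax5(+/-), 14.1 and 13.6 TPM in Pax5(R31Q/-) and 122 and 270.1 TPM in Pax5-/- cells. Its higher Pax5-/- library was the one with the smaller sum of granulocyte and monocyte markers. Nkg7, a granule protein of NK cells, had 6.45 and 6.34 TPM in Pax5(+/+) and 56.2 and 24.7 TPM in Pax5-/- cells, and the basophil protease gene Mcpt8 had 2.14 and 2.98 TPM and 20.1 and 15.8 TPM. The part of other cell types in these levels was not tested. Between the Pax5-/- libraries, 24 members were more than 1.5 times higher in replicate 2 and 11 in replicate 1.

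Effector proteins of phagocytes and lysosomes completed the role lists. Among 6 genes of the phagocyte oxidase, which makes superoxide, 3 were called higher and 1 lower in Pax5-/-, and 2 changed in Pax5(R31Q/-) cells. Cybb, its membrane catalytic chain, had 9.7 and 7.14 TPM in Pax5(+/+), 11.5 and 17.3 TPM in Pax5(+/-), 12.5 and 11.8 TPM in Pax5(R31Q/-) and 37.5 and 71.1 TPM in Pax5-/- cells. Ncf1, its cytosolic organizer, had 15.1 and 18.7 TPM, 20.8 and 24.3 TPM, 11.4 and 11.4 TPM and 77.1 and 71.4 TPM in the same order. Thus the Pax5(R31Q/-) values of Cybb were above, and those of Ncf1 below, both Pax5(+/+) values. Of 22 lysosomal genes tested, 15 were called higher and 2 lower in Pax5-/-, and 3 changed in Pax5(R31Q/-) cells. The cathepsin gene Ctsh had 8.72 and 4.81 TPM in Pax5(+/+), 5.88 and 6.52 TPM in Pax5(R31Q/-) and 41.9 and 82.2 TPM in Pax5-/- cells. The members Ctsw, Mcoln3 and Scpep1 had 10.7 and 6.69 TPM, 8.27 and 14.1 TPM and 101 and 107 TPM in Pax5-/- cells. Ebi3, a subunit of the cytokines interleukin-27 and interleukin-35, had 8.71 and 14.7 TPM in Pax5(+/+), 17.8 and 15.7 TPM in Pax5(R31Q/-) and 67.1 and 62.8 TPM in Pax5-/- cells, and was the only member of 17 secreted factors tested, of which 11 were called higher and 1 lower in Pax5-/-, and 3 changed in Pax5(R31Q/-) cells. In all, 47 of the 121 members belonged to a role list, and Fcer1g and Tyrobp belonged to a pair of them.

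The Pax5(+/-) libraries had no part in the rule, so they could be tested. With limma on log2(TPM + 1), 0 of the 121 members passed an adjusted p under 0.05 against Pax5(+/+), a call made for 3 genes or 0.0223% of the 13436 genes tested. Genes entered the test with 1 TPM in any library, and 27 members did so only through libraries outside this comparison, so that a call was hardly possible for them. At an unadjusted p under 0.05, 14 members (11.6%) were higher and 0 were lower, where 2.91% of all genes were higher and 3.15% lower. Among the 94 members and 12799 genes with 1 TPM in a library of either genotype, 14.9% of members were higher, against 3.03% of genes. Both Pax5(+/-) libraries were above both Pax5(+/+) libraries for 46 members (38.0%) and below them for 14 (11.6%), compared with 21.1% and 14.9% of all genes tested. These counts include the 27 members under 1 TPM in both genotypes and were not made without them. The median difference was 0.17 for members and 0.02 for all genes tested, and 0.207 and 0.025 over those with 1 TPM in a library of either genotype. Among the 48 genes with a d of Pax5(R31Q/-) of at least 1, the median was 0.56. These genes too were chosen against the same Pax5(+/+) values, and no run with a library left out was made for them. The Pax5(+/+) values in this difference also chose the members as genes low in those libraries. When the rule was run without Pax5(+/+) replicate 1, the 118 genes it took had a median difference of 0.18 between Pax5(+/-) and that left-out library, with 66.1% above 0, against 0.02 and 55.0% for all genes tested. Without replicate 2, the 121 genes taken had a median of 0.12, with 56.2% above 0, against 0.03 and 53.5%.

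**Figure D4:**
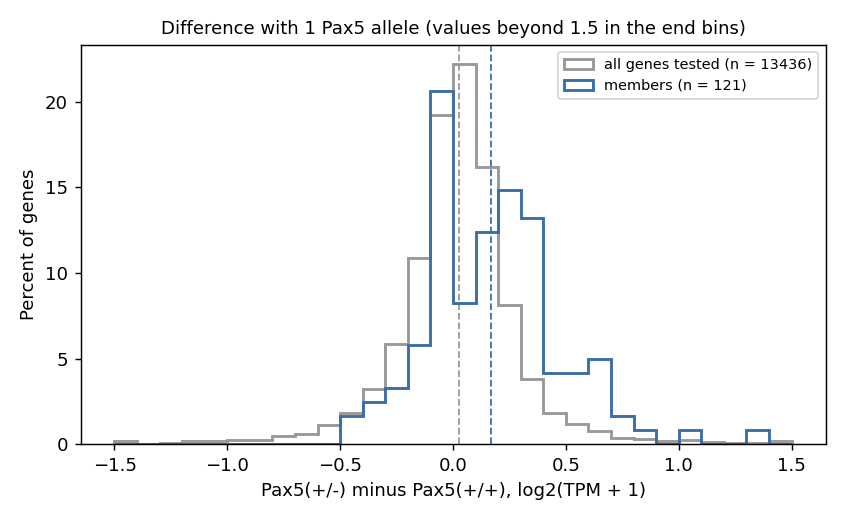
Percent of genes (y axis) by the difference between Pax5(+/-) and Pax5(+/+) means of log2(TPM + 1) (x axis, bins of 0.1), for the 121 members and the 13436 genes tested, with dashed lines at the medians of 0.17 and 0.02. No member lies below -0.5, and no member was called.

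Members with low p-values had higher values in Pax5(+/-) than in Pax5(+/+) cells. Coro2a, with its values given above, differed by 0.68 ± 0.13 (SE) on the log2(TPM + 1) scale (limma, adjusted p = 0.175). Lgals3bp, a secreted glycoprotein, had 47.4 and 57.2 TPM in Pax5(+/+) and 86.4 and 85.7 TPM in Pax5(+/-), a difference of 0.71 ± 0.15 (limma, adjusted p = 0.24). For both genes the groups did not overlap, but neither passed the adjusted threshold. Further differences were 0.59 for the sorting receptor gene Sorl1, 0.86 for the semaphorin gene Sema4a, 0.65 for the cathepsin inhibitor gene Ctla2a and 1.03 for the cystatin gene Cst7. Without Pax5(+/+) replicate 1 the differences were 0.56 for Sema4a and 0.68 for Cst7, and without replicate 2 they were 1.15 and 1.38. The smallest p of an exact two-sided permutation test with 2 libraries per group is 0.333, whereas limma draws on all genes to estimate the spread.

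Pax5(R31Q/-) and Pax5(+/-) cells each carry 1 allele that makes Pax5 protein. Between them, 0 of 121 members passed the adjusted threshold, where 83 genes or 0.618% of all genes did. Here 28 members reached 1 TPM only in libraries of the other genotypes and could hardly be called, and 0 of the other 93 passed, against 0.651% of 12757 genes. At an unadjusted p under 0.05, 5 members were higher and 7 lower in Pax5(R31Q/-) cells (4.10% and 5.79%), against 3.55% and 5.24% of all genes tested. Among the 93 members and 12757 genes with 1 TPM in a library of either genotype, 5.38% and 7.53% of members were, against 3.68% and 5.45% of genes. The Pax5(R31Q/-) values had been held near those of Pax5(+/+) by the rule, so that this comparison is only in part independent of it. The median difference was -0.10 for members and 0.01 for all genes. Over those with 1 TPM in a library of either genotype it was -0.158 and 0.015. Ncf1 was closest to the threshold, had a difference of -0.92 ± 0.15 (SE) on the log2(TPM + 1) scale and an adjusted p of 0.0526 by limma, with both Pax5(R31Q/-) values, 11.4 and 11.4 TPM, below both Pax5(+/-) values, 20.8 and 24.3 TPM. Sorl1, an endosomal sorting receptor, had 5.15 and 4.54 TPM in Pax5(+/+), 7.41 and 8.14 TPM in Pax5(+/-), 4.04 and 3.66 TPM in Pax5(R31Q/-) and 22.8 and 23.8 TPM in Pax5-/- cells. The difference between Pax5(R31Q/-) and Pax5(+/-) was -0.86 ± 0.15 (limma, adjusted p = 0.0697). Under 4 alternative settings, Ncf1, Sorl1 or both passed, with adjusted p-values between 0.00986 and 0.0495. Cisd3, an iron-sulfur protein of mitochondria, differed by 0.66 ± 0.19, at 6.14 and 6.22 TPM against 3.73 and 3.39 TPM (limma, adjusted p = 0.27).

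Binding was read from the peak lists, 1 per genotype, which gives no replicate check. Of the 119 members matched to a RefSeq gene, 28 (23.5%) had a wild-type Pax5 peak within 1 kb of a transcription start site. The share was 31.2% for the 48 genes with a d of Pax5(R31Q/-) of at least 1, and 75.9% for the 10411 genes with at least 5 TPM in both libraries of a genotype. Over all matched genes the share rose with the Pax5(+/+) level, which for members held only in part. Members with a mean of 20 TPM or more in Pax5(+/+) cells had such a peak in 10 of 15 cases (66.7%), against 82.3% of all matched genes of that level. From 5 to under 20 TPM it was 7 of 33 (21.2%) against 67.5%, from 1 to under 5 TPM 9 of 38 (23.7%) against 39.5%, and under 1 TPM 2 of 33 (6.06%) against 7.69%. The difference from genes of like level was therefore widest between 5 and 20 TPM.

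**Figure D5:**
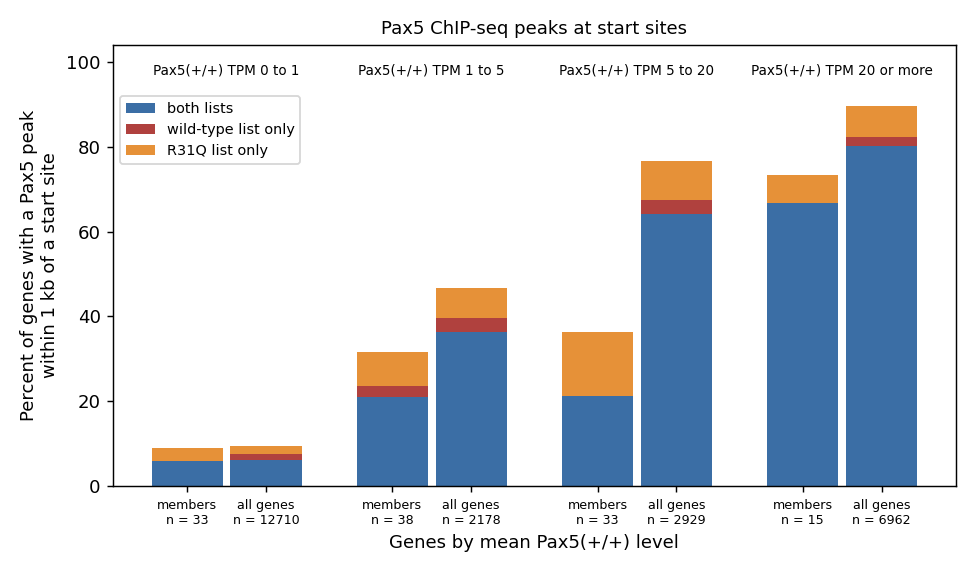
Percent of genes (y axis) with a Pax5 peak within 1 kb of a start site, by mean Pax5(+/+) level (groups along the x axis), for members and all matched genes. Colors split the bars into peaks overlapping between both lists, peaks in the wild-type list with no Pax5(R31Q/-) peak over them, and peaks only in the Pax5(R31Q/-) list, and for members from 5 to under 20 TPM the total stays well under that of all genes.

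The wild-type start-site peak was overlapped by a Pax5(R31Q/-) peak at 27 of the 28 members (96.4%). At genes with a d of Pax5(R31Q/-) of at least 1 this was so for 13 of 15 (86.7%), and at the 7906 peak-bearing genes with at least 5 TPM for 96.7%, so the share at members was close to that of transcribed genes. The widest start-site peaks in wild-type cells were those of H2-DMa (1062 bp), Limk1 (987 bp), Slc25a1 (794 bp), Notch1 (783 bp) and Nudt8 (758 bp). At all 5 genes a Pax5(R31Q/-) peak overlapped, and these were wider, with 1512, 1172, 1621, 1504 and 832 bp. This was not particular to them. The start-site peak of Dusp5 was 674 bp in the wild-type and 1305 bp in the Pax5(R31Q/-) list, while that of Tyrobp was 446 and 432 bp. Widths were not compared between the lists over all peaks. The Notch1 peak (chr2:26503443-26504225, GRCm38) was centered 12 bp from the start site. H2-DMa, which helps load peptides on MHC class II, had 19.4 and 26.2 TPM in Pax5(+/+), 19.1 and 19.0 TPM in Pax5(R31Q/-) and 112 and 90.7 TPM in Pax5-/- cells. Slc25a1, the mitochondrial citrate carrier, had 164 and 221 TPM, 246 and 237 TPM and 892 and 774 TPM, and Nudt8 had 9.42 and 11.2 TPM, 9.41 and 9.44 TPM and 56.1 and 44.1 TPM in the same order. The median width of the widest start-site peak was 454.5 bp at members and 584 bp at the transcribed genes. By Pax5(+/+) level, it was 362.5 bp at members and 454 bp at all matched genes under 1 TPM. From 1 to under 5 TPM it was 421 and 514 bp, and from 5 to under 20 TPM 465 and 567 bp. At 20 TPM or more the order turned, with 646.5 and 593 bp.

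Slc39a4, a zinc transporter gene, was the only one of the 28 members with none of its wild-type start-site peaks overlapped. Nudt8 had, beside its overlapped peak, a second one of 207 bp, 934 bp downstream of the start site, that no Pax5(R31Q/-) peak overlapped, so that 28 of the 30 start-site peaks of members were overlapped. The Slc39a4 peak (chr15:76617241-76617550, GRCm38) was 310 bp wide and its midpoint lay in an exon, 525 bp upstream of the nearest start site. This gene had 1.25 and 2.19 TPM in Pax5(+/+), 2.53 and 2.62 TPM in Pax5(R31Q/-) and 13.4 and 10.8 TPM in Pax5-/- cells. Its Pax5(R31Q/-) values exceeded both Pax5(+/+) values and stayed far under the Pax5-/- values. In contrast, 10 members (8.40%) had a start-site peak in the Pax5(R31Q/-) list only, among them Fcer1g, Grap2, Ifitm1, Il18r1, Lgals3bp, Sh2b2 and Tbc1d16. This was so for 20.8% of the 48 genes with a d of Pax5(R31Q/-) of at least 1 and for 7.84% of the transcribed genes.

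Beyond the start sites, 85 of 119 members (71.4%) had a wild-type peak in the gene or within 10 kb of it, and at 72 of these (84.7%) a Pax5(R31Q/-) peak overlapped at least 1 of them. The shares were 90.5% and 94.4% for the transcribed genes and 65.5% and 79.0% for all matched genes. By Pax5(+/+) level, a wild-type peak was found for 60.6% of members and 43.8% of all matched genes under 1 TPM, 65.8% and 74.4% from 1 to under 5 TPM, 78.8% and 87.6% from 5 to under 20 TPM, and 93.3% and 93.2% at 20 TPM or more, so that members were above, below or level with genes of like level. Of the 195 wild-type peaks at members, 83 had their midpoint in an intron, 51 downstream of the gene, 40 upstream and 21 in an exon. A Pax5(R31Q/-) peak overlapped 41 of the 83 in introns, 40 of the 51 downstream, 30 of the 40 upstream and 19 of the 21 in exons. Overlapped peaks had a median width of 428 bp and the others of 318 bp. Repeat-masked bases made up most of the sequence in 4.62% of the overlapped and 38.5% of the other peaks, and among the 164 peaks with less repeat sequence, 75.6% were overlapped. At the transcribed genes 71.5% of all wild-type peaks and 76.9% of those with less repeat sequence were overlapped, against 66.7% and 75.6% at members, and 1.27% of the overlapped and 25.6% of the other peaks were mostly repeats. Coro2a had the most wild-type peaks, 9, of which 7 were overlapped, and Runx2 had 7, of which 2 were. At 13 members none of the wild-type peaks was overlapped, namely 5830411N06Rik, Cd96, Clnk, Cyp2j6, Fyb, Gria3, Il18r1, Kcnk12, Lgals3bp, Ly6c2, P2ry10, Pdia5 and Zfp618. No peak of either list lay within 10 kb of 26 members (21.8%), against 5.49% of the transcribed and 30.9% of all matched genes. These members included Ffar2, Il31ra, Lat2, Ctsh, Mpeg1, Ncf1 and Ltb4r1. By Pax5(+/+) level, the share without any such peak was 30.3% of members and 53.3% of all matched genes under 1 TPM. From 1 to under 5 TPM it was 26.3% and 20.1%, and from 5 to under 20 TPM 18.2% and 7.58%. At 20 TPM or more it was 0% and 3.39%, so the order depended on the level.

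Promoter sequence could be read from RefSeq for 94 members, with 122 promoters of 300 bases from 250 bases before to 50 after a start. On either strand, GCGTGAC was found in 3.28% of these and in 2.09% of all 32851 promoters, while GCGTNAC was found in 4.1% and 5.96%, the opposite order. The letters AGGAAGT, a form of the site bound by Ets factors, were found in 22.1% of members' promoters and 9.35% of all, and TGTGGT, a form of the Runx site, in 27.9% and 16.8%. In the 40 promoters of the genes with a d of Pax5(R31Q/-) of at least 1, the shares were 2.5% (1) for GCGTGAC, 2.5% (1) for GCGTNAC, 22.5% (9) for AGGAAGT and 12.5% (5) for TGTGGT. Few promoters stand behind these shares, and no order is read from them. The set of all promoters was not matched to either group for transcript level. These are counts of letters, and no binding of Ets or Runx factors was measured.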

How the data were processed

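RNA-seq was read from 8 tables of TPM, 1 per library. Per the methods of the authors, reads were aligned to GRCm38/mm10 with STAR 2.4.2, uniquely mapping reads were counted on RefSeq genes with featureCounts, and TPM values were deposited without pooling replicates. The 2 ChIP-seq peak lists were made by the authors with Bowtie2 2.3.5.1 and MACS from 1 library each, and the deposited score column holds 0 in every line and was not used as a measurement.

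The members, gene lists and tests were chosen with earlier results of these data known. Immunoglobulin rows named by an Ensembl ID were recognized through a gene name table. Differences were tested two-sided with limma 3.58.1 (R 4.3.3) on log2(TPM + 1), with a trend and with all 4 genotypes in 1 fit, over genes reaching 1 TPM in any library, with Benjamini-Hochberg adjustment. The script was tested on simulated data. Read numbers recovered for 18206 genes are the smallest whole numbers giving the deposited ratios, so a factor common to all libraries cannot be seen. Peaks were matched by an overlap of at least 1 bp. Genes were named if they were in a role list, had one of the 10 largest values of d, lay nearest to a limit, had one of the 5 widest start-site peaks or a start-site peak of the wild type only. Named after their values were seen were Lgals3bp, Sorl1, Sema4a, Ctla2a, Cst7 and Cisd3 (low p-values), Nkg7, Mcpt8, Pld4 and Ly6c2 (marker lists), and genes shown only for their peaks or sequences. Some genes are not reported here by name.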

Additional observations from a re-analysis of the deposited data

How the results depend on the processing

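No paired analysis was possible because the labels give the genotypes no shared replicate numbers. Against 0 members called between Pax5(R31Q/-) and Pax5(+/-), 1 was called with at least 5 TPM in at least 2 libraries (Ncf1), 1 with median-ratio scaling (Sorl1), 1 without the limma trend (Sorl1) and 2 with limma-voom on recovered reads (both), an alternative chosen after seeing the data. The cause was not tested. Members called between Pax5(+/-) and Pax5(+/+) stayed at 0 in every alternative run. Over all genes the calls ranged from 0 to 32 against 3 for Pax5(+/-) and Pax5(+/+), with 28 without a filter and 0 when only these genotypes were fitted. For Pax5(R31Q/-) and Pax5(+/-) they ranged from 0 to 188 against 83, falling to 0 without Pax5(+/-) replicate 1 or either Pax5(R31Q/-) replicate, 8 without Pax5(+/-) replicate 2, and 34 and 36 without a Pax5(+/+) replicate. Of 416 values of single genes under alternatives, 411 stayed on the same side of the threshold and 5, all of Ncf1 or Sorl1, passed it, with 0 reversed.

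The choice of members moved with the rule's settings. A pseudocount of 0.1 gave 119 genes, of which 93 were shared with the 121. Median-ratio scaling gave 142, and the deposited names alone 130, both with all 121. Leaving out 1 library gave 118 to 159 genes, and 55 members were kept under every alternative. The runs on 7 libraries that were read in the left-out library, and the counts over genes with 1 TPM in a genotype compared, were added after seeing the data. Counting peaks in the gene or within 10 kb gave 85 members with a wild-type peak in place of 28. Depth limits the members with few reads: 15 had under 10 reads in both Pax5(+/+) libraries, and TCRB_Jb2-S1 rested on 1 and 2 reads in the Pax5-/- libraries.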
